A study of Mus musculus with 2 samples.

Results

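The nuclear receptor genes are described here in embryonic mouse midbrain through the chromatin at their transcription start sites (TSSs) and around them. The set holds 37 of the 21668 protein-coding genes that the GENCODE vM21 annotation places on chromosomes 1 to 19 and X. Members were chosen by name alone, as genes with a systematic nuclear receptor symbol (Nr, digit, letter, digit) together with the retinoid X, thyroid hormone, estrogen, estrogen-related and peroxisome proliferator-activated receptor genes. Not every gene with such a symbol is included. No measured value entered this rule, although earlier results of these data were known when it was chosen.

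The assay was DNase-seq, which reads out where the nuclease DNase I can reach and cut the DNA of intact nuclei. The tissue was whole midbrain of B6NCrl mouse embryos at embryonic day 11.5, with male and female embryos pooled. There was 1 group of 2 biological replicates and no treatment, control tissue or second stage, so no test between groups exists and every comparison below is a description. The labels give both replicates the same donor identifier, and whether the pools came from separate litters is not stated, so the spread between them may in part be technical. Different pairs of Illumina instruments were used for each replicate, so instrument and replicate cannot be told apart.

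Nuclear receptors are transcription factors with a zinc-finger domain that binds DNA and a second domain that in many members binds a small lipophilic ligand such as a steroid, thyroid hormone or fatty acid. Others are orphan receptors that act without a known hormone. Many recognise the sequence AGGTCA, alone or as a repeat bound by a pair of receptors, and the retinoid X receptors serve as the common partner in such pairs. In the developing brain the COUP-TF receptors Nr2f1 and Nr2f2 are known for regional patterning and neuronal identity, and Nr2e1 for keeping neural progenitors dividing.

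Replicate 1 had 305818 deposited peaks on these chromosomes and replicate 2 had 454408, with a median width of 150 bp in both. Each peak carries a signal, a whole number without a stated unit or normalization, with a median of 18 in replicate 1 and 8 in replicate 2. Because the scales differ, signals are given below for replicate 1 and then for replicate 2 and were not averaged. Read depth is unknown. Of marker genes for the tissue, 4 of 5 for midbrain and isthmus, 5 of 5 for neural progenitors and 5 of 5 for neurons had a TSS peak in both replicates. The same held for 2 of 5 endothelial, 3 of 5 mesenchymal, 1 of 5 red cell, 0 of 5 microglial and 0 of 5 liver markers. In bulk tissue, few cells with open chromatin and weak opening in many cells cannot be told apart.

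A region that held overlapping peaks of both replicates is called a consensus site. It is called distal where its midpoint was over 2.5 kb away from all protein-coding TSSs, and it was given to the gene with the nearest TSS within 100 kb. The strongest such site outside annotated UTRs is shown for each of the 6 members with the most distal consensus sites, since these are the sequences behind the counts that follow. Each line gives 150 bases around the midpoint from the plus strand of GRCm38.p6, which has the coordinates of mm10. Capitals mark, on either strand, the receptors' own AGGTCA or AAGTCA, the form known for Nr2e1, the homeodomain core TAATTA, the basic helix-loop-helix core CAGCTG, the SOX core ACAATG and the CTCF part AGGGGGC.
Nr2f2, chr7:70346266-70346415: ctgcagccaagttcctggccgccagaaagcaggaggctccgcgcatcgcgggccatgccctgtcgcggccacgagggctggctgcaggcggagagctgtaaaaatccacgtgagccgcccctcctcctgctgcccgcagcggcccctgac
Nr2f1, chr13:78203556-78203705: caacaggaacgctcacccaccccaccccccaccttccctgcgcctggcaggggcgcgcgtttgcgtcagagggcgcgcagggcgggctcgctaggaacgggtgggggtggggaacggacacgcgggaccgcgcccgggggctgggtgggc
Esrrg, chr1:187605466-187605615: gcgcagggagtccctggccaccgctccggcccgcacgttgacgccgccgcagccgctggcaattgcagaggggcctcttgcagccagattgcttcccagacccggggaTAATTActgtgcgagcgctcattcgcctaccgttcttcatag
Nr6a1, chr2:38824036-38824185: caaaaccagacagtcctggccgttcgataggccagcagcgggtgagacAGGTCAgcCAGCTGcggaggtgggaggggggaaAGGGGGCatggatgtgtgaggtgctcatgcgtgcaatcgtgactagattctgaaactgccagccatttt
Esr2, chr12:76196116-76196265: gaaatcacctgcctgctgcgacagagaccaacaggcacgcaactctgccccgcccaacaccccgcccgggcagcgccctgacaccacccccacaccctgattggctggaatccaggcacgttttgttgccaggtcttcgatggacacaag
Nr5a1, chr2:38688946-38689095: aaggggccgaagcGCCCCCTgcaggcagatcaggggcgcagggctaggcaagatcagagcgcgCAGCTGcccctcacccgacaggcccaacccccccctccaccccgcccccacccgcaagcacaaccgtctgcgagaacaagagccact
The Nr2f2 site lay between genes, 14253 bp downstream of the nearest Nr2f2 TSS, and had signals of 124 and 65. The Nr2f1 site, 3873 bp upstream of the gene and inside the long noncoding RNA gene A830082K12Rik, had signals of 104 and 70. None of the 6 searched sequences occurs in these 2 stretches or in that of Esr2 (93 and 50, 18931 bp upstream). The Nr6a1 site, in an intron of the gene, had signals of 121 and 72 and holds AGGTCA together with the helix-loop-helix core and the CTCF part. The Nr5a1 site (113 and 55, 23214 bp downstream) holds the same core and, on the other strand, the CTCF part, and the Esrrg site (81 and 40, 3489 bp upstream) holds the homeodomain core.

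A gene was called accessible when at least 1 of its TSSs had a replicate 1 peak within 500 bp and at least 1 had a replicate 2 peak. By this rule 31 of the 37 members (83.8%) were accessible, against 65.5% of all protein-coding genes. The other 6 had no TSS peak in either replicate, a state shared by 28.1% of all genes, and 0 members had a TSS peak in 1 replicate only, against 6.45% of all genes. At the level of single start sites the members stood close to the genome: 64 of their 94 TSSs (68.1%) had a peak in both replicates, against 63.2% of all TSSs. The median signal of the strongest TSS peak was 98 and 67 over the 31 accessible members, and 113 and 70 over all accessible genes.

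**Figure D1:**
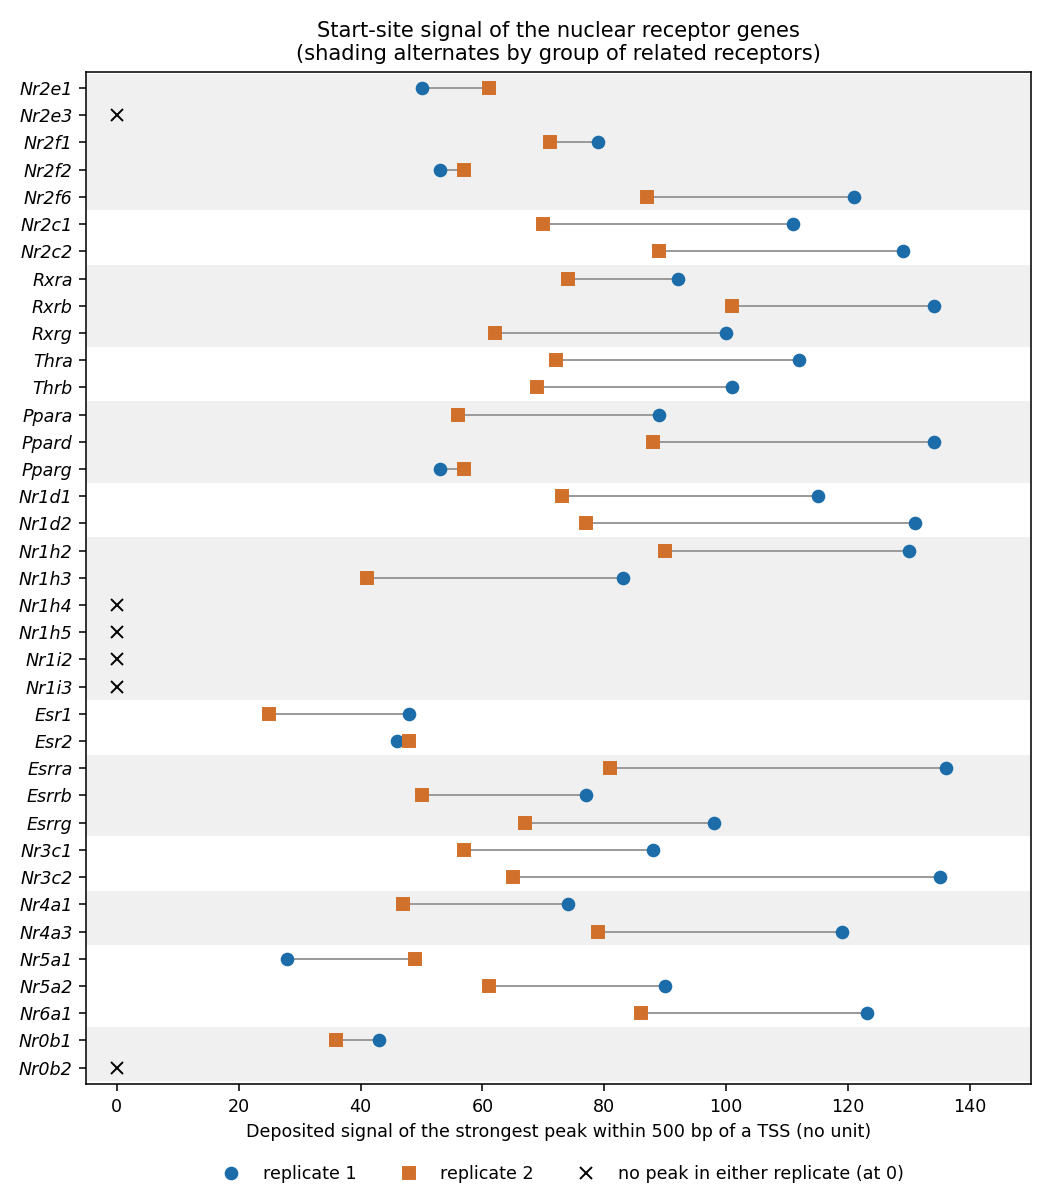
Deposited signal (no unit) of the strongest peak within 500 bp of a TSS for each of the 37 genes, with a circle for replicate 1 and a square for replicate 2. The signal of replicate 1 reaches 136 at Esrra and is lowest, at 28, at Nr5a1, and 6 genes marked with a cross have no such peak.

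The 6 members without a TSS peak were Nr1h4, Nr1h5, Nr1i2, Nr1i3, Nr2e3 and Nr0b2. Nr1h4 encodes the bile acid receptor FXR, a regulator of bile acid synthesis in liver and gut, and Nr1h5 is its paralog. Nr1i2 (PXR) and Nr1i3 (CAR) encode the receptors that switch on drug-metabolising enzymes in liver. Nr0b2 encodes SHP, a corepressor-like receptor of the liver without a DNA-binding domain, and Nr2e3 is a photoreceptor gene of the retina. The nearest peak of replicate 1 lay 2079 bp from a TSS of Nr1i2, 3980 bp from Nr0b2, 5983 bp from Nr1h5, 6915 bp from Nr1i3, 9319 bp from Nr2e3 and 14531 bp from Nr1h4. In replicate 2 the distances were 732, 7311, 5703, 6935, 9339 and 7278 bp in the same order, and the peak 732 bp from Nr1i2 had a signal of 8. The 6 members included 4 of the 6 genes for sterol, bile acid and xenobiotic receptors. The other members of that group were accessible, Nr1h2 with 130 and 90 and Nr1h3 (LXR-alpha) with 83 and 41.

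The highest TSS signals, ranked by the mean of the percentiles in both replicates among genes with a TSS peak, belonged to Rxrb, Ppard, Nr1h2, Nr2c2, Esrra and Nr6a1. Rxrb, a retinoid X receptor, had 134 and 101 (mean percentile 94.7), although the same peaks lay within 500 bp of the start of the neighbouring Slc39a7. Ppard, a fatty acid sensor, had 134 and 88, and Nr1h2 (LXR-beta), an oxysterol receptor gene, came next. The orphan receptor gene Nr2c2 followed with 129 and 89, the estrogen-related receptor gene Esrra, a regulator of mitochondrial genes, with 136 and 81, and the orphan receptor gene Nr6a1 with 123 and 86. Their mean percentiles were 89.2, 86.6, 84.8, 84.4 and 76.1.

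The lowest signals were at Nr5a1, Nr0b1, Esr1 and Esr2. Nr5a1 (SF-1), a regulator of adrenal and gonadal development, had 28 and 49, Nr0b1 (DAX-1), a repressor of its activity, had 43 and 36, Esr1 had 48 and 25, and Esr2 had 46 and 48. Esr1 and Esr2 encode the estrogen receptors alpha and beta. Nr2e1, the progenitor gene, had 50 and 61 at a start whose peak also lay within 500 bp of Ostm1, and Nr2f2 and Pparg, the adipocyte receptor gene, had 53 and 57 each. The signal was lower in replicate 2 for 26 of the 31 accessible members, against 95.6% of all accessible genes. The 5 exceptions were Nr5a1, Esr2, Nr2e1, Nr2f2 and Pparg, all of which had a replicate 1 signal of 53 or less. Across the 31 members the signals of the replicates had a Spearman's rho of 0.856, and across the 14190 accessible genes 0.782, over genes that share the same libraries.

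Many members have several TSSs that were not all called alike. Among the 28 members with more than 1 TSS, 13 (46.4%) mixed TSSs that had a peak in each replicate with TSSs that did not. Of all genes with several TSSs, 20.7% did so. The TSSs that did not could still have a peak in 1 replicate. Such peaks had signals of 5 at Nr2c1, 8 at Esr2 and 9 at Nr3c2 in replicate 2, and of 86 at Rxrb in replicate 1. Rxra, the main retinoid X receptor, had signals of 92 and 74 at its upstream pair of TSSs and no peak at the pair that lies farther inside the gene. Pparg had 53 and 57 at its first TSS, 36 and 26 at the next, and no peak at the inner TSS. Nr5a2, a receptor of early embryo and liver, was accessible at 1 of 4 TSSs (90 and 61), with 2 TSSs free of peaks and 1 with a peak of replicate 2 only (50). Esrrb, a pluripotency gene, was accessible at 2 of 4 TSSs (77 and 50) and Thrb at 1 of 2 (101 and 69). Esr1 was accessible only at its inner TSS (48 and 25), while its outer TSSs had a peak in replicate 2 alone, with a signal of 14.

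Start sites of both states are shown by the 250 bases upstream of 4 TSSs, from RefSeq on GRCm38.p6 and printed along the strand of the gene, with the dinucleotide CG in capitals. The RefSeq promoter table matched 34 of the 37 members.
Rxra, accessible upstream TSS, chr2:27676951-27677200, plus strand: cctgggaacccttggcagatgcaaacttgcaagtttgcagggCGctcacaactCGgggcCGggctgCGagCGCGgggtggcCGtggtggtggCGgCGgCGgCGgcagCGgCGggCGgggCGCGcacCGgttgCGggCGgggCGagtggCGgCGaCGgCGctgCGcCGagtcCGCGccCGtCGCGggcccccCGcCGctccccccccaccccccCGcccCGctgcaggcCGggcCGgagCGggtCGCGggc
Rxra, TSS without a peak, chr2:27709042-27709291, plus strand: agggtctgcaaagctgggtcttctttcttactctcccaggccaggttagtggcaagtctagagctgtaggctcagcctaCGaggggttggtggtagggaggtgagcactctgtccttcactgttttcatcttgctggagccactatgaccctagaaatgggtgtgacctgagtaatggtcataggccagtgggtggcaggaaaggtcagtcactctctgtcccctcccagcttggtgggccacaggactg
Nr1i3, TSS without a peak, chr1:171213720-171213969, plus strand: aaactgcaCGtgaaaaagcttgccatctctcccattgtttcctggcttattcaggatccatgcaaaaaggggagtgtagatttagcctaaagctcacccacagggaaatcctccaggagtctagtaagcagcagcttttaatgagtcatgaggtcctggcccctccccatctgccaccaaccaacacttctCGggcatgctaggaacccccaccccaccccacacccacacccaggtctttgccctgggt
Nr2f2, accessible outer TSS, chr7:70366747-70366996, minus strand: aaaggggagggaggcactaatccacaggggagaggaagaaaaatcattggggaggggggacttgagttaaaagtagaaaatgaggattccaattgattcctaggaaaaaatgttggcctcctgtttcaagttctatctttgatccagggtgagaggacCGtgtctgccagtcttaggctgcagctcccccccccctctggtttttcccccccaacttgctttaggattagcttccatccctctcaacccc
The first of these holds 40 CG dinucleotides, the inner Rxra stretch 1 and the Nr1i3 stretch 2. The outer Nr2f2 stretch also holds only 1, yet that TSS had peaks of 44 and 37 within 500 bp. The replicate 1 peak nearest to any Nr2f2 TSS lay 290 bp away, so it fell outside the printed stretch. In replicate 2 the nearest peak, with a signal of 37, lay 10 bp from a TSS. Over 500 bp either side of a TSS, the observed to expected CpG ratio had a median of 0.710 (0.258 to 1.01) at the 64 member TSSs with a peak in both replicates and of 0.199 (0.0905 to 0.623) at the 22 without a peak. With a ratio under 0.25, 0 of 16 member TSSs were accessible, against 6.18% of all TSSs in that range. From 0.25 to 0.5 it was 14 of 26 (53.8%, against 46.5%), from 0.5 to 0.75 it was 27 of 28 (96.4%, against 94.9%), and from 0.75 upward 23 of 24 (95.8%, against 98.8%). Within each range the members' share therefore lay within a few sites of that of all TSSs. TSSs of a gene that lie close together were counted separately, although they share sequence and peaks. Examples are the 4 TSSs of Nr1i3, all in the lowest range, and the 4 of Nr1h2, so these counts are not of independent starts.

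**Figure D2:**
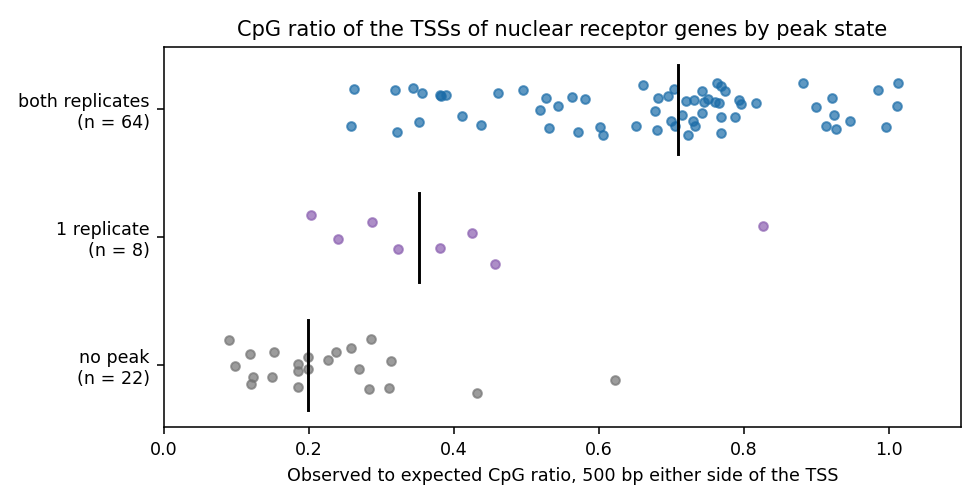
Observed to expected CpG ratio in 500 bp either side of each of the 94 TSSs of the nuclear receptor genes, by whether a peak lay within 500 bp in both replicates, 1 replicate or neither. Points are TSSs spread vertically for visibility, and black bars are the medians, 0.710 with peaks in both replicates and 0.199 with none.

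The members had 217 distal consensus sites. At least 1 such site was given to 28 of the 37 members (75.7%, against 56.8% of all genes) and at least 5 to 16 members (43.2%, against 14.3%). At least 10 sites were given to 9 members (24.3%, against 3.86%) and at least 30 to 2 members, against 0.115% of all genes. The count of 9 fell to 5 with the nearest TSS within 50 kb, to 2 when overlaps of at least 75 bp were required and to 5 with hotspots, where the shares of all genes were 1.96%, 1.83% and 2.99%. The median was 3 sites for each member and 1 for all genes. Members also have longer territories, the sequence nearest to a gene's TSSs between 2.5 and 100 kb, with a median of 109 kb against 41.1 kb. For each 100 kb of territory the median was 3.69 sites for members and 1.54 for all genes. Nr2f1 and Nr2f2 held 69 of the 217 sites (31.8%), and without them the mean fell from 5.86 to 4.23 sites for each member, against 2.06 for all genes. The strength of single sites was close to that of all sites in replicate 1 and higher in replicate 2. The median signal was 44 and 29 at member sites and 45 and 23 at all 44716 distal consensus sites.

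**Figure D3:**
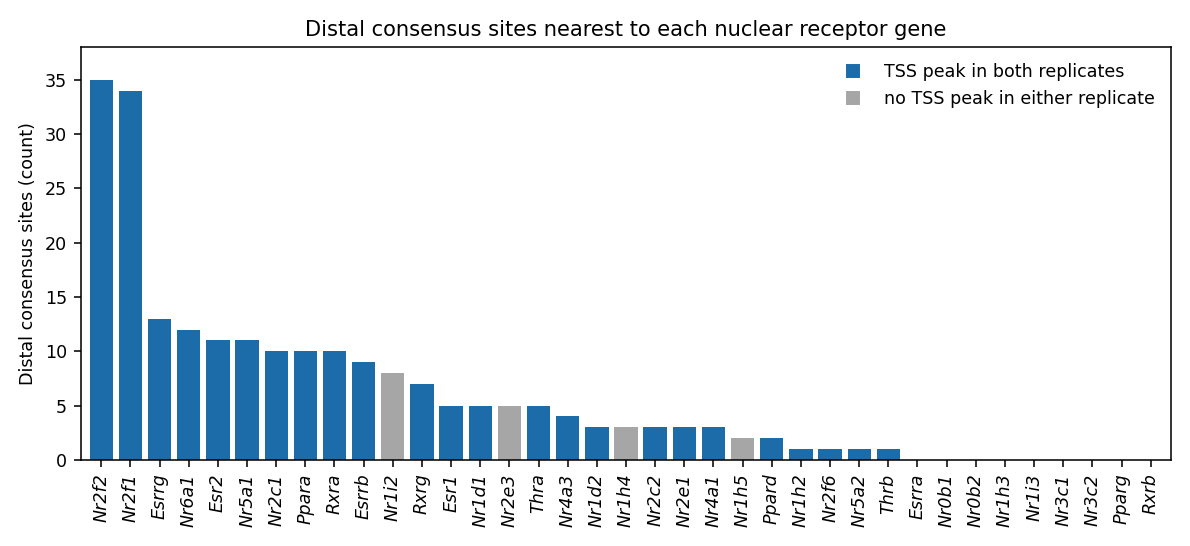
Number of distal consensus sites given to each of the 37 genes (vertical axis, count), in blue for genes with a TSS peak in both replicates and in grey for genes with none. Nr2f2 with 35 and Nr2f1 with 34 stand above the next gene, Esrrg, with 13, and 9 genes have no such site.

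The COUP-TF genes led the set. Nr2f2, on the minus strand at chr7:70351944-70366735, had 35 distal consensus sites and rank 11 among all genes, and Nr2f1, on the minus strand at chr13:78188973-78199757, had 34 and rank 13. At Nr2f1 the sites spanned 53.2 kb, with 11 upstream and 23 downstream of the nearest TSS, and 22 of them lay inside long noncoding RNA genes. Of all distal consensus sites 44.2% lay upstream, and their share inside long noncoding RNA genes was not counted. Signals of the Nr2f1 sites ranged from 12 to 108 with a median of 47 in replicate 1. In replicate 2 they ranged from 6 to 80 with a median of 30.5. Grouping sites less than 5 kb apart placed all 34 in 2 runs on either side of the start. A run of 23 sites covered 31.3 kb downstream and a run of 11 sites covered 12.8 kb upstream. The strongest site by mean percentile (106 and 80) lay in an exon of the neighbouring gene Fam172a.

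The sites of Nr2f2 were spread over 161.6 kb. Of these, 7 lay upstream and 28 downstream, beside 44.2% of all distal consensus sites upstream. Inside long noncoding RNA genes lay 30 of the 35, a share not counted for all sites. Signals of the 35 sites ranged from 11 to 124 with a median of 39, and from 11 to 65 with a median of 34. A run of 19 sites covered 14.5 kb downstream of the gene, all but 1 of them inside the long noncoding RNA gene Gm29683, and had a median signal of 40 in both replicates. A second downstream cluster of 4 sites covered 2.89 kb. Required overlaps of at least 75 bp left 23 sites at Nr2f2 and 16 at Nr2f1, and hotspots in place of peaks gave 19 and 18. Replicate 2 was below replicate 1 at 25 of the 35 sites of Nr2f2 and at 29 of the 34 sites of Nr2f1. The scales of the replicates differ, with a median signal of 45 and 23 over all distal consensus sites. The share of all sites with a lower signal in replicate 2 was not counted, so whether these counts are particular to the 2 genes cannot be told.

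**Figure D4:**
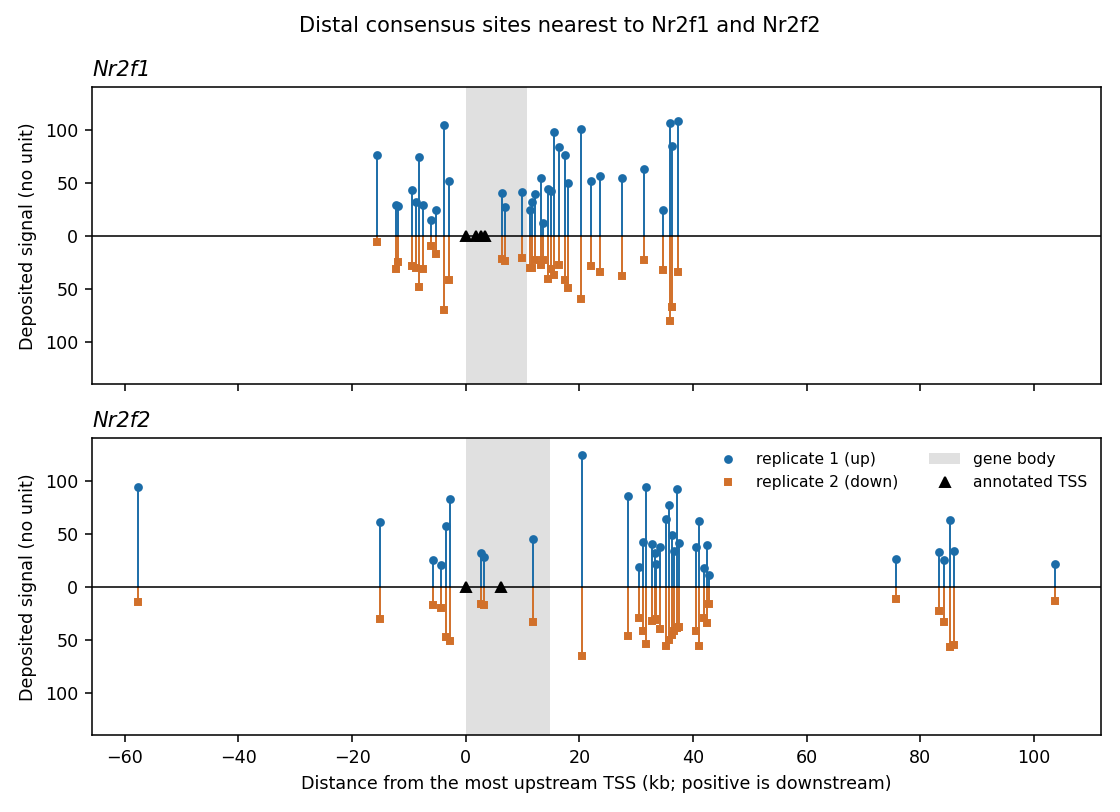
Distal consensus sites of Nr2f1 (34 sites) and Nr2f2 (35 sites) by distance from the gene's most upstream TSS in kb along its own strand, with the deposited signal (no unit) of replicate 1 drawn upward and that of replicate 2 downward. Nr2f1 sites flank the gene on both sides within 53.2 kb, whereas 19 Nr2f2 sites crowd into 14.5 kb downstream of it.

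Both genes were accessible at all of their TSSs, with mean percentiles of TSS signal of 39.8 for Nr2f1 and 23.4 for Nr2f2. The 4 TSSs of Nr2f1 had 79 and 71, 53 and 63, 51 and 43, and 38 and 28, from the outermost to the innermost, and the TSSs of Nr2f2 had 44 and 37 outside and 53 and 57 inside. The hotspot, a broader deposited region of raised cutting, measured 3175 and 3229 bp over the 3 outer TSSs of Nr2f1 and 3584 and 6180 bp over the inner TSS of Nr2f2. It was narrower over the innermost TSS of Nr2f1, at 1389 and 2058 bp, and over the outer TSS of Nr2f2, at 208 and 2380 bp. The medians were 1266 and 2065 bp over the accessible member TSSs and 1032 and 1560 bp over all accessible TSSs. Between 0.5 and 2.5 kb from a TSS, Nr2f1 had 8 further consensus sites and Nr2f2 had 6, against a median of 1 for members and 0 for all genes. Among members only Nr6a1, with 10, had more than Nr2f1. The third COUP-TF gene, Nr2f6, was arranged the other way, with 121 and 87 at its TSS and 1 distal site in a territory of 7.22 kb. Nr2e1 had 3 distal sites, the nearest of which, 3.58 kb into the gene, had 48 and 58.

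Nr6a1 encodes the germ cell nuclear factor, a repressor of pluripotency genes in the early embryo. It was the only member among the 6 with the highest TSS signals that was also among the 6 with the most distal consensus sites, of which it had 12, or 6 with hotspots or when sites near the start of a long noncoding RNA gene were also left out. All 12 lay in introns of the gene, and 6 of them formed a run of 3.39 kb, with a median signal of 78 and 35 and the printed site (121 and 72) as the strongest. Its neighbour on chromosome 2, Nr5a1, had 11 sites although its TSS signal in replicate 1 was the lowest of any accessible member, and 6 of these formed a run of 8.73 kb at the downstream end of the gene. One Nr5a1 site (85 and 32) lay inside an intron of Nr6a1, so assignment by distance does not separate these neighbours.

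The estrogen-related receptors, orphan receptors of energy metabolism, differed widely among themselves. Esrrg had 56 and 67 at its outer TSS and 98 and 48 at its inner pair. It had 13 sites across 553.0 kb, or 8 with overlaps of at least 75 bp, and its longest runs held 3 sites. In the run 42.3 to 43.6 kb downstream of the outer TSS, sites overlapped RefSeq promoter stretches of Esrrg. RefSeq starts were not used to call sites distal, so this run may not be distal. Signals of the 13 sites ranged from 15 to 98 and from 9 to 44. Esrrb had 9 sites, with 15 as the median signal of replicate 2 against 61 in replicate 1. Esrra, which has a territory of only 3.32 kb, had none. Of the estrogen receptors, Esr2 had 11 sites, 3 of them in introns of Syne2, and Esr1 had 5.

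Among the retinoid X receptors, Rxra had 10 sites (4 with the nearest TSS within 50 kb and 6 with overlaps of at least 75 bp), with signals up to 114 and 69 at a site in one of its introns, and Rxrg, with a TSS signal of 100 and 62, had 7. Rxrb had none in a territory of 1.02 kb. The thyroid hormone receptor gene Thra overlaps the clock repressor gene Nr1d1 (REV-ERB-alpha) on the opposite strand of chromosome 11. Each had 5 distal sites (3 with overlaps of at least 75 bp) in a short territory, giving the highest densities of any members, 27.9 and 22.9 for each 100 kb. Of the Nr1d1 sites, 2 lay in introns of Thra and 1 in an exon of both genes, so assignment by distance does not separate the 2 genes. Their TSS signals were close, at 112 and 72 for Thra and 115 and 73 for Nr1d1. The strongest Thra site in replicate 2 (81 and 75) lay in an intron of Thra. Thrb had 1 site in a territory of 390 kb, and Nr1d2 had 3 sites (1 within 50 kb) and a TSS signal of 131 and 77.

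Of the PPAR genes, Ppara, a regulator of fatty acid oxidation, had 10 sites (5 within 50 kb), all upstream of the gene and 6 of them inside the long noncoding RNA gene Lncppara. Its median site signal was 63 and 41, and its TSS signal was 89 and 56. Ppard had 2 sites, of 112 and 69 and of 113 and 57, both inside the neighbouring gene Def6 and both within 2.5 kb of a long noncoding RNA start. Pparg had none in 165 kb. The NR2C orphan receptors drew their sites from neighbours too: 6 of the 10 sites of Nr2c1 lay in introns of Fgd6 and all 3 sites of Nr2c2 lay in introns of Fgd5. The TSS signal of Nr2c1 was 111 and 70. Of the immediate early genes of the NR4A group, Nr4a1 had the strongest distal consensus site of any member (131 and 89), at -7.76 kb, where a negative distance lies upstream. That exceeded the signal at the Nr4a1 TSS itself, 74 and 47. Nr4a3 had 4 sites (1 with overlaps of at least 75 bp) and a TSS signal of 119 and 79.

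Receptors without an accessible start were not free of distal sites. Nr1i2 had 8 (5 with overlaps of at least 75 bp or with hotspots), of which 6 lay in the neighbouring genes Gsk3b and Maats1, Nr2e3 had 5 (3 away from long noncoding RNA starts), Nr1h4 had 3 and Nr1h5 had 2. Of the sites of Nr2e3, all 5 lay upstream and 3 lay inside Thsd4, and the strongest (106 and 50) was the peak nearest to its TSS in both replicates. Nr0b2 and Nr1i3 had none, in territories of 9.37 and 7.93 kb. Few or no sites were also given to several accessible members: Nr1h2, Nr5a2 and Nr2f6 had 1 each, and Nr1h3 and Nr0b1 had 0.

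The corticoid receptor genes combined open starts with long territories and no distal consensus site. Nr3c1, the glucocorticoid receptor gene, had 88 and 56 at one TSS and 58 and 57 at another, and Nr3c2, the mineralocorticoid receptor gene, had 135 and 65. In territories of 195 and 195.8 kb each had 0 distal consensus sites, although sites of single replicates were there. Nr3c1 had 19 sites in replicate 1 only and 13 in replicate 2 only, both with a median signal of 7. Nr3c2 had 1 in replicate 1 only and 47 in replicate 2 only, with a median signal of 3. The opposite imbalance held at Rxrg, with 52 sites in replicate 1 only, of median signal 7, and 3 in replicate 2 only.

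Over all members, 324 distal sites were seen in replicate 1 only and 636 in replicate 2 only, beside the 217 consensus sites. Most distal peaks of all genes likewise lacked a partner. Replicate 1 taken alone had 547 distal peaks at members and 138563 at all genes, and replicate 2 had 859 and 223199, beside 44716 consensus sites of all genes. Some single-replicate sites were strong. The highest signal of a site in replicate 1 only was 120 for Nr2f1, 114 for Nr4a3 and 100 for Nr2f2, and the highest in replicate 2 only was 58 for both Nr2f2 and Nr4a3. Across the 217 consensus sites the signals of the replicates had a Spearman's rho of 0.583, and across all 44716 distal consensus sites 0.730.

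Start-site signal and the number of distal sites were only weakly related among the members. Of the 6 with the highest TSS signals, 5 had between 0 and 3 distal sites. Of the 6 with the most distal sites, 5 had a mean TSS percentile of 41.7 or less. Across the 31 accessible members the Spearman's rho between TSS percentile and site number was -0.20, and -0.17 without Nr2f1 and Nr2f2. Across all accessible genes it was -0.08. The points share both libraries, and territory moved with both measures: its rho with site number was 0.34 and with TSS percentile -0.32. Its part in the relation was not tested.

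**Figure D5:**
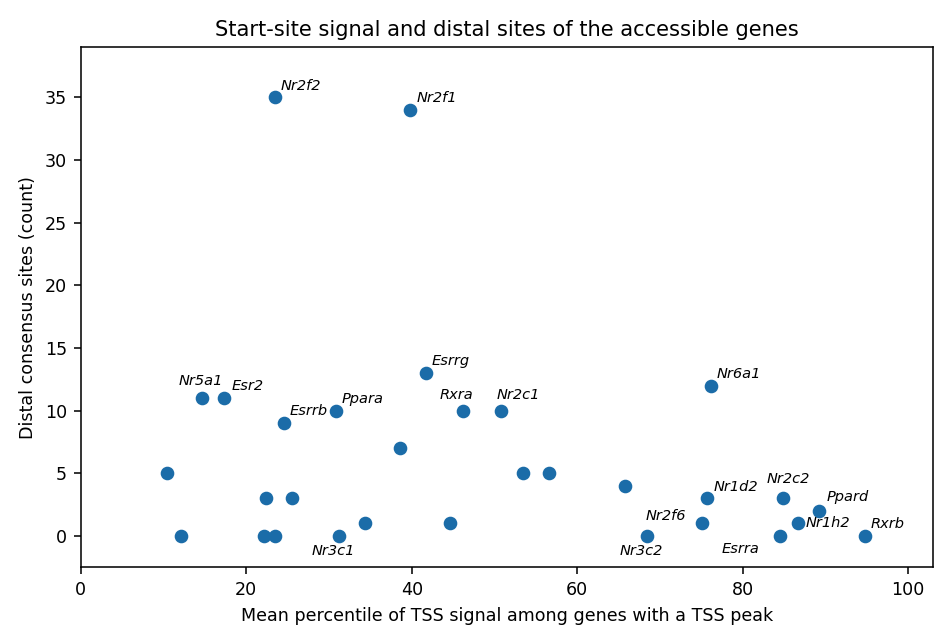
Distal consensus sites (count) against the mean percentile of TSS signal in the 2 replicates for the 31 accessible nuclear receptor genes. Nr2f2 and Nr2f1 lie at percentiles of 23.4 and 39.8 with 35 and 34 sites, and Rxrb lies at 94.7 with none.

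The receptors' own recognition sequence was present at few of the members' distal sites. In the central 150 bp, counting both strands, AGGTCA occurred in 13 of the 217 member sites (5.99%, exact binomial 95% interval 3.23% to 10.0%, for counting error only), against 9.81% of all distal consensus sites, a share inside that interval. In the distal peaks of single replicates the members' share was 10.2% in replicate 1 and 9.20% in replicate 2, against 10.5% and 9.79% of all. The repeat AGGTCANAGGTCA (DR1), bound by pairs with a retinoid X receptor, was found at 0 of 217 sites, which allows a share of up to 1.69%, against 0.101% of all sites. The extended form TCAAGGTCA, known as the preferred sequence of estrogen-related and NR5 receptors, was likewise found at 0 member sites and at 0.264% of all sites. Both of these hold AGGTCA and are counted within it. Examples are shown as 30 bases of GRCm38.p6 on the strand of the match, with AGGTCA in capitals, from matched sites of 6 members.
Nr6a1, chr2:38824072-38824101, plus strand: agcgggtgagacAGGTCAgccagctgcgga
Nr2e3, chr9:59959555-59959584, minus strand: tgtgggtattgcAGGTCAgcctgttagaca
Esrrg, chr1:187605028-187605057, plus strand: tgcttctttgccAGGTCAatgtgttaatta
Thra, chr11:98748519-98748548, minus strand: attcccccctgcAGGTCAaagacagaaaga
Nr2f1, chr13:78208476-78208505, minus strand: aaaaggccagaaAGGTCAggatgcctggct
Nr2e1, chr10:42540716-42540745, minus strand: gggacactccacAGGTCAaagtgttcagat
These sites had signals of 121 and 72 (Nr6a1), 106 and 50 (Nr2e3), 47 and 44 (Esrrg), 47 and 34 (Thra), 32 and 30 (Nr2f1), and 26 and 33 (Nr2e1). Of the 34 Nr2f1 sites 2 held AGGTCA, and of the 35 Nr2f2 sites also 2. CAGCTG was in 14.7% of member sites and 14.5% of all sites. TAATTA was in 5.07% against 3.07%, with an interval of 2.56% to 8.89%, and AAGTCA in 6.45% against 7.99%. ACAATG was in 5.07% against 9.09%, and AGGGGGC in 5.07% against 9.25%. Both have a counting interval of 2.56% to 8.89%, which lies just below the shares of all sites. That interval treats sites as independent, whereas many lie at the same genes. CAGCTG and AGGGGGC were at 0 of the 34 Nr2f1 sites, which allows up to 10.3% for each. AGGGGGC was also at 0 of the 35 Nr2f2 sites, which allows up to 10.0%, so all member sites that held it belonged to other members. CAGCTG was at 5 of the 35 Nr2f2 sites. Median GC content was 53.3% at member sites and 52% at all sites.

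Nuclear receptors work with coactivators, corepressors and chaperones. All 14 coactivator genes, all 13 corepressor genes and all 6 chaperone genes of the steroid receptors were accessible, beside 65.5% of all genes. The corepressor gene Bcl11b had 14 distal sites and the coactivator gene Ncoa3 had 12. Of 11 further nuclear receptor genes outside the set, 9 were accessible, again beside 65.5%. The liver receptor gene Hnf4a had no TSS peak, and the retinoic acid receptor gene Rara had 16 distal sites.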

How the data were processed

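Accessible chromatin was measured by DNase-seq in 1 group of 2 biological replicates, numbered as in the labels. Per the file headers and the labels, the authors deposited 1 peak list and 1 hotspot list per replicate, both on mm10. The deposited signal of each peak is a whole number from 1 to 148 in replicate 1 and from 1 to 130 in replicate 2 on the chromosomes used, and was used only within its own list or side by side. The deposited hotspot q-values, on a −log10 scale from 1.30 to 100, and the deposited hotspot score were not used. No source used here names the aligner, the peak caller or their settings. The deposited lists hold no read totals, so precision is limited by 2 replicates of unknown depth.

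TSSs were those of GENCODE vM21 basic protein-coding transcripts, and sequence came from GRCm38.p6. Peaks of both replicates were merged on an overlap of at least 1 bp. A TSS percentile ranks a gene among genes with a TSS peak in that replicate. Sites were described by midpoint, and sequences were counted on both strands. Intervals are exact binomial (Clopper-Pearson) at 95%. The functions were tested on simulated data. Python 3.11.15, pandas 2.3.3, numpy 2.4.6, scipy 1.17.1, pysam 0.24.0 and matplotlib 3.10.9 were used.

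Members and gene lists were chosen with earlier results of these data known. The AGGGGGC count and the 5 kb limit for runs were added after seeing the data. Some genes and sequences that these rules take are not reported here. Full values were given for the 6 members with the most distal consensus sites, the 6 with the highest mean TSS percentile and all members without a TSS peak. From each other list at most 4 genes are named, taken from those with the most distal sites and those without a TSS peak. Alternatives changed the TSS window (150 or 1000 bp), the distance limits (50 or 5 kb), the overlap (75 bp) and the sequence window (300 bp), kept the stronger 50% of peaks, used hotspots in place of peaks or left out a replicate. The lists were chosen in groups by receptor type, with marker genes for midbrain, progenitors, neurons, red cells, endothelium, mesenchyme, microglia and liver.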

Additional observations from a re-analysis of the deposited data

How the results depend on the processing

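No paired analysis was possible because the series has 1 group. Accessible members numbered 29 to 31 and members without a TSS peak 5 to 7 across all settings, and distal consensus sites numbered 147 to 200 when both replicates were used with other limits. With a TSS window of 150 bp, Rxra lost its TSS peaks in both replicates and Nr2f2 lost those of replicate 1, which left 29 accessible members. The number of members with at least 10 distal sites moved more: it was 5 with the nearest TSS within 50 kb (1.96% of all genes), 2 with an overlap of at least 75 bp (1.83%) and 5 with hotspots in place of peaks (2.99%), against 9 (3.86%). With a single replicate it was 17 (all distal peaks of replicate 1, 20.6% of all genes) and 21 (replicate 2, 29.2%), and the members' distal sites numbered 547 and 859, since no second replicate filtered them. AGGTCA was in 13.8% of member sites in 300 bp windows, against 18.4% of all sites, and in 9.20% and 10.2% of distal peaks of replicate 2 and replicate 1 alone, against 9.79% and 10.5%. Leaving out TSS peaks near another gene's TSS, which gave 29 accessible members, and sites near long noncoding RNA TSSs, which gave 186 sites (24 for Nr2f1 and 29 for Nr2f2), were chosen after seeing the data. Of the site counts of single members, 78 changed by more than 1.5 times and 218 changed by less or not at all. These numbers pool all settings, including those with a single replicate, where all distal peaks were counted. They also include members such as Esrra that stayed at 0 sites.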
